A study of Mus musculus with 6 samples.

Results

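The liver RNA of 40 genes of fatty acid oxidation was compared between mice on a regular diet (RD) and mice on a high-cholesterol diet (HCD). The genes were taken by symbol from a written list of enzymes, carriers and regulators of mitochondrial and peroxisomal oxidation, and all 40 were found among the 20673 genes of the deposited tables. They comprised 7 genes of the carnitine shuttle and fatty acid activation, 16 of mitochondrial oxidation, 11 of peroxisomal oxidation, 5 acyl-CoA thioesterases and 1 gene of ketone body metabolism. The animals were young adult C57BL/6J mice, an inbred wild-type strain, with 3 livers per diet, 1 library per liver and no transgene or deletion in either group. The RD group had the regular diet alone, and the HCD group was fed for 3 days a diet with added cholesterol, cocoa butter and sodium cholate, so that the effects of these ingredients cannot be told apart. Both sexes were used in the study, and the labels do not give the sex of each liver. The comparison asked which liver genes had changed after the short feeding period that in the study came before sepsis.

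Fatty acids are activated to acyl-CoA and enter mitochondria as carnitine esters, through the outer-membrane transferase CPT1, the carrier SLC25A20 and the inner-membrane transferase CPT2. Each round of β-oxidation then runs through a dehydrogenase, a hydratase, a second dehydrogenase and a thiolase, and hepatocytes can turn the acetyl-CoA into ketone bodies. Peroxisomes use a separate set of enzymes, in which an oxidase takes the first step and a bifunctional protein the next steps, for very long and branched chains and for dicarboxylic acids. Acyl-CoA thioesterases split acyl-CoA back to free acid and CoA, and many genes of all these groups are known targets of the fatty acid receptor PPARα.

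The libraries had depths from 13771630 to 23129576 read counts in the RD group and from 13935491 to 18545549 in the HCD group. Every one of the 40 genes passed the filter on low counts that left 13105 genes for testing. Hepatocyte markers summed to 62621 to 86925 FPKM (fragments scaled by gene length and sequencing depth) with RD and 68986 to 99209 with HCD, and 0 of the 10 markers passed the test. HCD replicate 1 stood apart, with 5032 counts of Xist, which is transcribed from the inactive X chromosome, and 0 counts of each of 4 Y-linked genes. The other 5 livers had 0 Xist counts and 1075 to 2666 counts of the Y-linked genes together. A list of 14 genes known to be higher in male liver summed to 1049 FPKM in HCD replicate 1 and to 15785 to 30369 in the others. A list of 15 genes known to be higher in female liver summed to 2127 FPKM in that liver, to 12.9 to 44.0 with RD and to 13.1 and 22.8 in the other HCD livers. Acot3, Acot4, Cyp4a10 and Cyp4a14, all described below, are also known to be higher in female liver and were left out of that sum. This pattern was in 1 of 3 HCD livers and in 0 RD livers, and results are also given without that liver. Markers of other cells moved with the diet in part: 6 red blood cell genes, 5 of them tested and 2 called higher, summed to 123 to 260 FPKM with RD and 330 to 744 with HCD. The 10 Kupffer cell markers, 0 of them called, summed to 134 to 227 FPKM with RD and to 194 to 416 with HCD. All 10 Kupffer markers had a log2 fold change above 0, beside 50.7% of all genes tested, with a median of 0.84. Of the 10, 5 had an unadjusted p of 0.05 or less in edgeR, beside 11.1% of all genes higher at that p. Of the genes tested, 10 of 10 stellate cell, 9 of 10 endothelial, 4 of 4 leukocyte and 4 of 6 cholangiocyte markers were also above 0. Their medians were 0.50, 0.29, 0.39 and 0.37, and 0 of them were called, where the test called 1.95% of all genes higher. Of 14 clock genes tested 6 were above 0 and 0 were called. The part of these cells in the results below was not tested, and in bulk liver RNA more cells of a type and more RNA per cell cannot be told apart.

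Of the 40 genes, 5 rose with HCD and 0 fell at an adjusted p under 0.05 in the edgeR quasi-likelihood test after Benjamini-Hochberg correction across the 13105 genes tested, which called 1.95% of all genes higher and 1.32% lower. DESeq2 and limma-trend also called 0 of the 40 lower. DESeq2 gave no value for Acot3 and called 10 of the other 39 higher, beside 4.01% of all genes, adding Crat, Acadl, Acads, Eci2 and Ech1. The 5 genes called in edgeR lay in 2 of the steps. Ehhadh and Acaa1b encode peroxisomal enzymes, and Acot1, Acot2 and Acot4 encode thioesterases of one gene cluster. No gene of the carnitine shuttle, of mitochondrial oxidation or of ketone metabolism passed the edgeR test. The fold changes ran mostly upwards all the same, with 33 of the 40 genes (82.5%) above 0 on the log2 scale beside 50.7% of all genes tested, and 30 with library sizes alone in place of TMM factors. The CPM (counts scaled by TMM to a common library total) of the diets did not overlap in 18 genes that were higher with HCD and in 1 that was lower, beside 14% and 13.7% of all genes. The median log2 fold change of the 40 genes was 0.31, and that of all genes tested was 0.01.

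**Figure D1:**
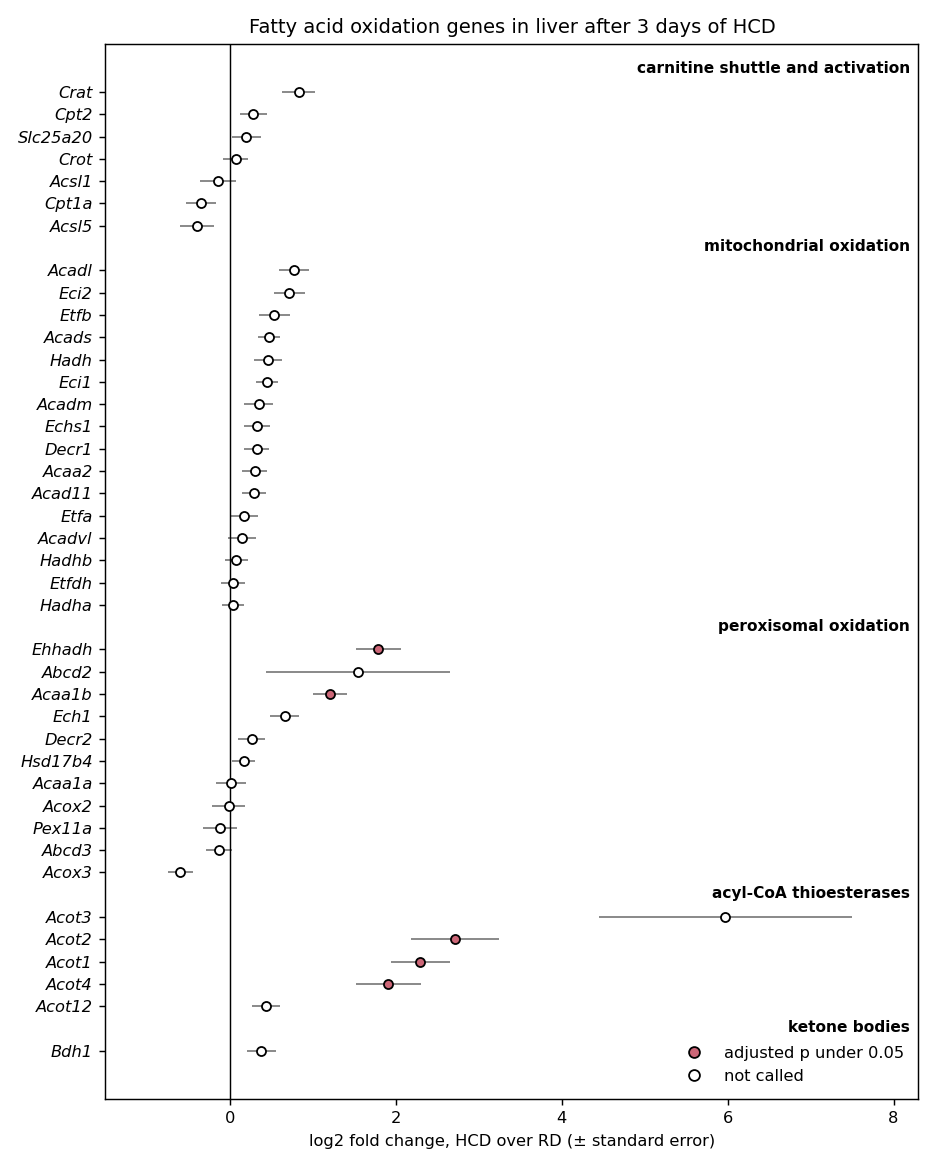
Log2 fold change of HCD over RD (horizontal axis) with its standard error (bars) for each of the 40 genes (vertical axis), grouped by step, from edgeR with 3 livers per diet. The filled points are the 5 genes with an adjusted p under 0.05, 2 of them peroxisomal and 3 of them thioesterases, while the 16 mitochondrial genes form a narrow band between 0.04 and 0.77.

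Without HCD replicate 1, 4 of the 40 genes were called higher, beside 1.58% of all genes, and Acot2 was the gene whose call was lost (adjusted p = 0.0654). Of the 40 genes, 31 then had a log2 fold change above 0 (77.5%, beside 49.5% of all genes), and 20 did not overlap between the diets in the upward direction, beside 19.5% of all genes. With RD replicate 1, 2 or 3 left out, 0 of the 40 genes were called higher, and the test then called 0.13%, 0.176% and 0.557% of all genes higher. Over those fits the adjusted p of the 5 genes lay between 0.0521 and 0.146, and their log2 fold changes stayed between 1.14 and 3.20.

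The 11 peroxisomal genes ran from -0.60 to 1.79 in log2 fold change, and 2 of them were called higher, beside 1.95% of all genes. Ehhadh (ENSMUSG00000022853) encodes the L-bifunctional enzyme, which hydrates and then oxidises enoyl-CoA and is known for its part in dicarboxylic acid oxidation. Its CPM were 202, 234 and 252 in the RD livers and 861, 1038 and 480.4 in the HCD livers. The lowest HCD liver stood well above the highest RD liver. The log2 fold change of Ehhadh was 1.79 ± 0.27 (SE, 3.46-fold, adjusted p = 0.0184 in the edgeR quasi-likelihood test). Left-out livers moved it between 1.55 and 2.04, and without HCD replicate 1 it was 1.73 with an adjusted p = 0.0294.

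Acaa1b (ENSMUSG00000010651), a peroxisomal thiolase that releases acetyl-CoA from 3-ketoacyl-CoA, had the highest level of the 40 genes per unit of length, with a mean of 983 FPKM over the 6 livers. Its CPM were 869, 783 and 722 with RD and 1809, 2249 and 1419 with HCD. Each HCD liver was above each RD liver, and the log2 fold change was 1.21 ± 0.20 (SE, 2.31-fold, adjusted p = 0.0254 in the edgeR quasi-likelihood test). The value was 1.21 again without HCD replicate 1, with an adjusted p = 0.0334.

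The near copy of this gene, Acaa1a (ENSMUSG00000036138), showed another pattern. Its CPM were 224, 158 and 167 with RD and 156, 193 and 208 with HCD. The diets overlapped, and the log2 fold change was 0.02 ± 0.18 (SE, adjusted p = 0.967 in the same edgeR test), with the other sign in 5 of 15 alternatives. The ratio of Acaa1b to Acaa1a in FPKM, a pair chosen after the values were seen and so given without a test, was 9.85 ± 1.21 with RD and 22.6 ± 6.23 with HCD (SD, n = 3). The coding sequences of the 2 genes have the same 1275 bases in length and differ at 44 of them (96.5% identity). Because how reads that fit both copies were counted is not stated, the split between them is uncertain. The first 90 coding bases, from the GENCODE M21 annotation on GRCm38, show how close the copies are, and the capitals mark the 3 positions that differ:
Acaa1a: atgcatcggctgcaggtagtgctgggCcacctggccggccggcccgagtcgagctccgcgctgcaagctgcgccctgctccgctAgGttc
Acaa1b: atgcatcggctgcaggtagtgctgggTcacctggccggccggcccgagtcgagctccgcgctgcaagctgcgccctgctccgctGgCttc

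The 250 bases before the RefSeq start sites of Ehhadh, Acaa1b and Acaa1a on GRCm38.p6 are shown because the first pair of genes rose while Acaa1a, the copy of Acaa1b, overlapped between the diets. They are written 5′ to 3′ along the gene, and capitals mark each GC box (GGGCGG on either strand):
Ehhadh (chr16:21787835-21788084, minus strand): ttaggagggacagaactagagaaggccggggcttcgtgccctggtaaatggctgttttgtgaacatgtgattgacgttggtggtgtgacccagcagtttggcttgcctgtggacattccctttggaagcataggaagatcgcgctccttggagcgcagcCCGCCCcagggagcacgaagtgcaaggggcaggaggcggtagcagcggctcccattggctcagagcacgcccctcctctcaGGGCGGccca
Acaa1b (chr9:119157094-119157343, minus strand): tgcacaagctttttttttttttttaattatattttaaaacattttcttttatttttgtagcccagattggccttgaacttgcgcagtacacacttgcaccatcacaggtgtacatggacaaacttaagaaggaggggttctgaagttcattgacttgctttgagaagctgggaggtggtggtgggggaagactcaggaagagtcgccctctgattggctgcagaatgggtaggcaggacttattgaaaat
Acaa1a (chr9:119341044-119341293, plus strand): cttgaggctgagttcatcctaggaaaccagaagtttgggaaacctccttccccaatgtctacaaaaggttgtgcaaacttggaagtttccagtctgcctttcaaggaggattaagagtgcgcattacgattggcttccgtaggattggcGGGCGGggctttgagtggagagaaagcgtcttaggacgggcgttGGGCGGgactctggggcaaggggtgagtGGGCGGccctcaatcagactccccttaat
The window of Acaa1a held 3 GC boxes, that of Ehhadh 2 and that of Acaa1b 0, and their GC contents were 53.6%, 60.4% and 41.6%.

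Ech1, whose product shifts double bonds of unsaturated chains in both organelles, had CPM of 239, 219.8 and 179 with RD and of 387, 295 and 325 with HCD. The diets did not overlap, and the log2 fold change of 0.66 ± 0.17 (SE) missed the threshold (adjusted p = 0.0788 in the edgeR quasi-likelihood test), but passed in DESeq2 (adjusted p = 0.00788). Acox3, a peroxisomal acyl-CoA oxidase of branched chains and the least abundant of the 40 genes with a mean of 3.05 FPKM, was the lowest in fold change. Its CPM were 33.1, 25.7 and 27.4 with RD and 18.9, 19.9 and 18.2 with HCD, so that every HCD liver was below every RD liver. Its log2 fold change was -0.60 ± 0.15 (SE, adjusted p = 0.0686 in the edgeR test), the only one of the 40 below 0 with an unadjusted p of 0.05 or less, beside 9.81% of all genes. Both Acox3 and Bdh1, described below, share sequence with an antisense transcript, from which their reads may not be told apart.

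The other oxidases and the D-bifunctional protein gave smaller differences. Hsd17b4, which encodes that protein and is known for branched-chain and bile acid oxidation, had 381 ± 32.1 CPM with RD and 427 ± 23.03 with HCD (log2 fold change 0.17, adjusted p = 0.539 in edgeR). The FPKM ratio of Ehhadh to Hsd17b4, chosen after the values were seen, was 0.695 ± 0.125 with RD and 2.14 ± 0.805 with HCD (SD, n = 3). Acox2, the oxidase of bile acid intermediates, had a log2 fold change of -0.02, with the other sign in 7 of 15 alternatives, and Decr2, a peroxisomal dienoyl-CoA reductase, one of 0.26. The transporter gene Abcd3 and Pex11a, a factor of peroxisome division, lay at -0.14 and -0.12, and Pex11a turned to 0.13 without RD replicate 1. Abcd2, another importer of very long chains, was uneven within the diets, with CPM of 4.18, 3.28 and 20.3 with RD and of 71.5, 2.48 and 7.38 with HCD. Its log2 fold change of 1.54 ± 1.11 (SE, adjusted p = 0.463 in edgeR) turned to -0.93 without HCD replicate 1.

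**Figure D2:**
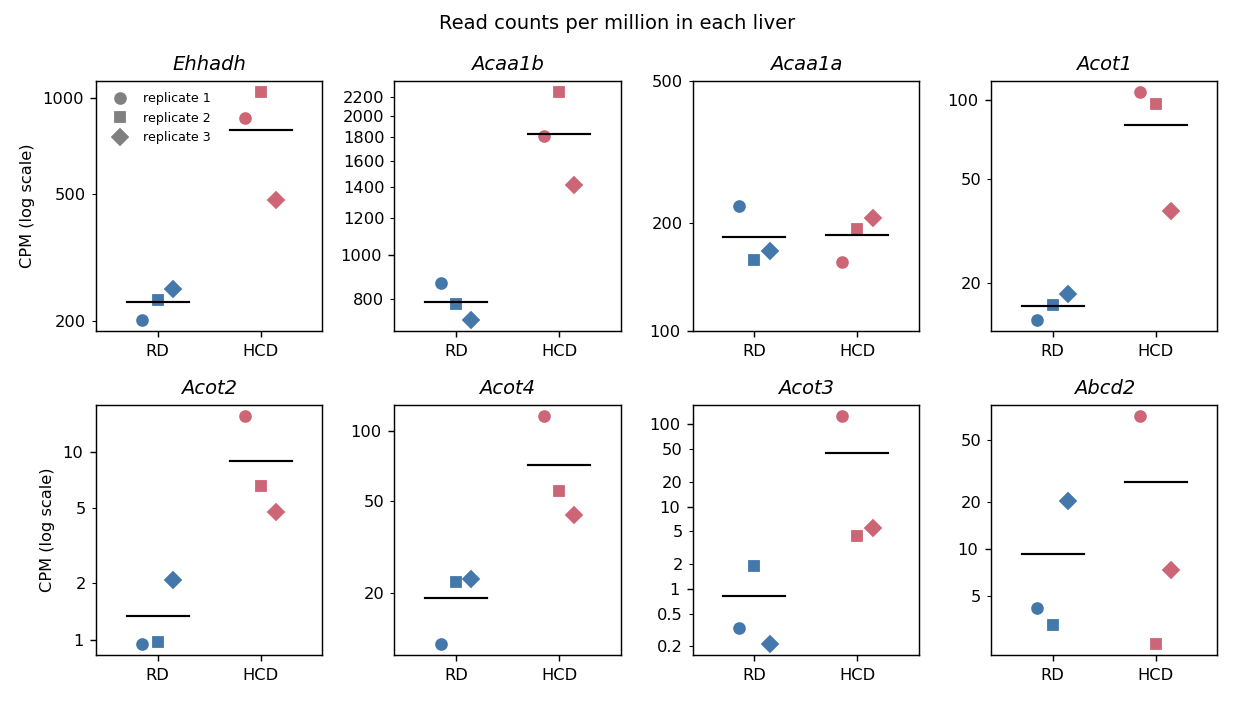
CPM on a log scale (vertical axis, a separate range for each gene) in the 3 RD and 3 HCD livers for the 5 genes that rose, for Acaa1a and for 2 genes that HCD replicate 1 dominates, with a bar at the mean of each diet. In Ehhadh, Acaa1b, Acot1, Acot2 and Acot4 each HCD liver is above each RD liver, while Acaa1a overlaps and Acot3 and Abcd2 peak in HCD replicate 1 at 126 and 71.5 CPM.

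Acot1 to Acot4 had the largest log2 fold changes of the 40 genes and low levels per unit of length, while Acot12 was unlike them in both. Acot1 (ENSMUSG00000072949), the cytosolic long-chain enzyme, had CPM of 14.5, 16.5 and 18.2 with RD and of 107, 96.8 and 37.7 with HCD. The lowest HCD liver was above every RD liver, and the log2 fold change was 2.30 ± 0.35 (SE, 4.91-fold, adjusted p = 0.0184 in the edgeR quasi-likelihood test). Without HCD replicate 1 it was 2.03, with an adjusted p = 0.0294.

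Acot2 (ENSMUSG00000021226), its mitochondrial relative, had CPM of 0.961, 0.977 and 2.08 with RD and of 15.4, 6.55 and 4.78 with HCD. These values rest on 14 to 48 counts per library with RD and on 59 to 305 with HCD. The diets did not overlap, the log2 fold change was 2.72 ± 0.53 (SE, 6.57-fold, adjusted p = 0.0354 in the edgeR quasi-likelihood test), and without HCD replicate 1 it was 2.06. The Acot2 call was lost without HCD replicate 1, as given above, without HCD replicate 3 (adjusted p = 0.0545 in edgeR) and with limma-trend on log2 of FPKM plus 1 (adjusted p = 0.0567). Acot4 (ENSMUSG00000052392), a peroxisomal succinyl-CoA thioesterase, had CPM of 12.1, 22.3 and 23.1 with RD and of 116, 55.0 and 43.6 with HCD. Its diets were separate too, with a log2 fold change of 1.91 ± 0.39 (SE, 3.75-fold, adjusted p = 0.0410 in the edgeR test). Without HCD replicate 1 it was 1.37 with an adjusted p = 0.0460, and with library sizes alone in place of TMM the call was lost (adjusted p = 0.0628). The call was also lost without HCD replicate 2 (adjusted p = 0.0530 in edgeR), without HCD replicate 3 (adjusted p = 0.0601) and with limma-trend on the FPKM (adjusted p = 0.0664 and 0.0669).

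Acot3, the peroxisomal long-chain enzyme of the same cluster, was low in 5 livers and high in 1. Its CPM were 0.336, 1.88 and 0.217 with RD and 126, 4.41 and 5.43 with HCD, from 5 to 27 counts per library with RD and 64, 67 and 2487 with HCD. The value of 126 belonged to HCD replicate 1, although the other HCD livers were also above the RD livers. The log2 fold change was 5.97 ± 1.52 (SE, adjusted p = 0.0739 in the edgeR test) with that library and 2.67 without it (adjusted p = 0.126). Acot12, a cytosolic acetyl-CoA thioesterase and the most abundant of the group with a mean of 38.0 FPKM, had CPM of 79.2, 67.0 and 69.9 with RD and of 117, 99.3 and 76.3 with HCD. One HCD liver fell within the RD range, and the log2 fold change was 0.44 ± 0.17 (SE, adjusted p = 0.194 in edgeR).

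Acot1 and Acot2 share 95.5% of 1239 aligned coding bases, and stretches of at least 200 bases at 95% identity or more link Acot1 with Acot2, Acot2 with Acot4 and Acot4 with Acot3. An antisense transcript shares sequence with Acot1, Acot3 and Acot4, and whether counting used strand is not stated, so that the division of reads within the cluster is uncertain. The 250 bases before the start sites of the 3 genes that rose are shown, from RefSeq on GRCm38.p6, since these neighbours on chromosome 12 all rose. Capitals mark GC boxes as above and the nuclear receptor half-site AGGTCA on either strand:
Acot1 (chr12:84009252-84009501, plus strand): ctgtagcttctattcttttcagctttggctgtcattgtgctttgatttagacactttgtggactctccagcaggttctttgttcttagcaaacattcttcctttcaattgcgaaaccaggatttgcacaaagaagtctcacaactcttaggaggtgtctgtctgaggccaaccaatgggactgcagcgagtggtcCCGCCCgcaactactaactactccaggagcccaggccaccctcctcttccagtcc
Acot2 (chr12:83987611-83987860, plus strand): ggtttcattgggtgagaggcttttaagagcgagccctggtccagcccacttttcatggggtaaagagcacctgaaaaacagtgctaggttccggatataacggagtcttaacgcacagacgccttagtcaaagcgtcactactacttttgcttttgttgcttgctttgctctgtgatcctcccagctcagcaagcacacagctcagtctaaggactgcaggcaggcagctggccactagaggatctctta
Acot4 (chr12:84038129-84038378, plus strand): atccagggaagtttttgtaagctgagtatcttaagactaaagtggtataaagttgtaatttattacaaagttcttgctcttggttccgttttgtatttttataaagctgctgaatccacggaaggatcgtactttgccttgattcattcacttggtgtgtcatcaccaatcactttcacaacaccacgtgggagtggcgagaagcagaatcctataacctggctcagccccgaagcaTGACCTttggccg
The window of Acot1 held 1 GC box, that of Acot2 neither motif, and that of Acot4 1 half-site.

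RefSeq start-site windows of 300 bases, 250 before the start and 50 after it, were at hand for 35 of the 40 genes, 40 windows in all, and motifs were searched on both strands. The full direct repeat to which PPARα with RXR is known to bind, AGGTCANAGGTCA, which contains AGGTCA, was in 0 of the 40 windows and in 0.0396% of all 32851 windows. AGGTCA alone was in 8 windows of 7 genes (Cpt1a, Acadm, Acadvl, Echs1, Acot3, Acot4 and Acot12), beside 16.3% of all windows. GGGCGG was in 25 of the 40, beside 35.7% of all. A match is only a match of letters, and such windows leave out enhancers and introns.

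The 16 mitochondrial genes all had a log2 fold change above 0, from 0.04 to 0.77 with a median of 0.32, although Hadha and Etfdh fell to just below 0 with library sizes alone in place of TMM factors (-0.02 each). Of the 16, 0 passed the edgeR test, while 3 did in DESeq2, which called 4.01% of all genes higher, and 0 with limma-trend on the FPKM. In 9 of them the diets did not overlap, beside 14% of all genes, and 6 had an unadjusted p of 0.05 or less in edgeR, beside 11.1% of all genes higher at that p. Without HCD replicate 1 the median was 0.33, 14 of the 16 were above 0, beside 49.5% of all genes, and 9 did not overlap, beside 19.5%.

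The first dehydrogenases of the spiral differed in order of size. Acadl, the long-chain acyl-CoA dehydrogenase, had CPM of 159, 140.2 and 138 with RD and of 315, 217 and 214 with HCD. The diets were separate, and the log2 fold change of 0.77 ± 0.18 (SE), the largest of the mitochondrial genes, missed the threshold (adjusted p = 0.0592 in the edgeR quasi-likelihood test). It was 0.56 without HCD replicate 1. The short-chain Acads lay at 0.47 (adjusted p = 0.0946 in edgeR), with no overlap between 158 to 172 CPM with RD and 214 to 244 with HCD. The medium-chain Acadm lay at 0.35, and at 0.15 without HCD replicate 1. Acad11, for very long chains and hydroxylated acids, lay at 0.29, and Acadvl, the very-long-chain enzyme of the inner membrane, at 0.15.

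Downstream of the dehydrogenases the values were mixed in size. Hadha and Hadhb, which encode the α and β subunits of the trifunctional protein, were nearly level, with 318 ± 21.9 against 325 ± 17.5 CPM for Hadha and 128 ± 7.89 against 135 ± 15.9 for Hadhb (RD against HCD, SD, n = 3). Their log2 fold changes were 0.04 ± 0.14 (SE) and 0.08 ± 0.14 (SE), with adjusted p = 0.908 and 0.793 in edgeR. Hadhb shares 1428 bases at 99.8% identity with the processed pseudogene Gm13910, so that its reads may be shared. The soluble enzymes of shorter chains had larger values, namely Hadh, a hydroxyacyl-CoA dehydrogenase, at 0.46 and Echs1, a hydratase, at 0.33. Acaa2, the thiolase of this set and at 912 FPKM the second most abundant of the 40 genes, had CPM of 888, 849 and 784 with RD and of 954, 999.9 and 1147 with HCD. Its diets were separate, by a log2 fold change of only 0.30 ± 0.16 (SE, adjusted p = 0.313 in edgeR).

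The genes that handle unsaturated chains differed in size. Eci2, an enoyl-CoA isomerase found in mitochondria and peroxisomes, had CPM of 129, 107 and 82.8 with RD and of 162, 204 and 159 with HCD, for a log2 fold change of 0.72 ± 0.19 (SE, adjusted p = 0.0834 in the edgeR test). Its diets did not overlap, nor did those of its relative Eci1, at 0.44 (adjusted p = 0.110 in edgeR), whereas those of the dienoyl-CoA reductase Decr1, at 0.32, did. Part of the Eci2 transcript is near-identical to Eci3, so that its reads may be shared.

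Electrons from the dehydrogenases pass to the electron transfer flavoprotein. Etfb, its β subunit, had CPM of 32.5, 31.7 and 31.4 with RD and of 57.3, 34.7 and 46.4 with HCD. The RD livers lay close together and every HCD liver was above them, with a log2 fold change of 0.53 ± 0.19 (SE, adjusted p = 0.152 in edgeR) that was 0.35 without HCD replicate 1. Etfb shares 617 bases at 100% identity with the annotated gene Gm45233, so that its reads may be shared. The α subunit gene Etfa lay at 0.17 and the gene of the ubiquinone oxidoreductase, Etfdh, at 0.04, with overlap between the diets in both.

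**Figure D3:**
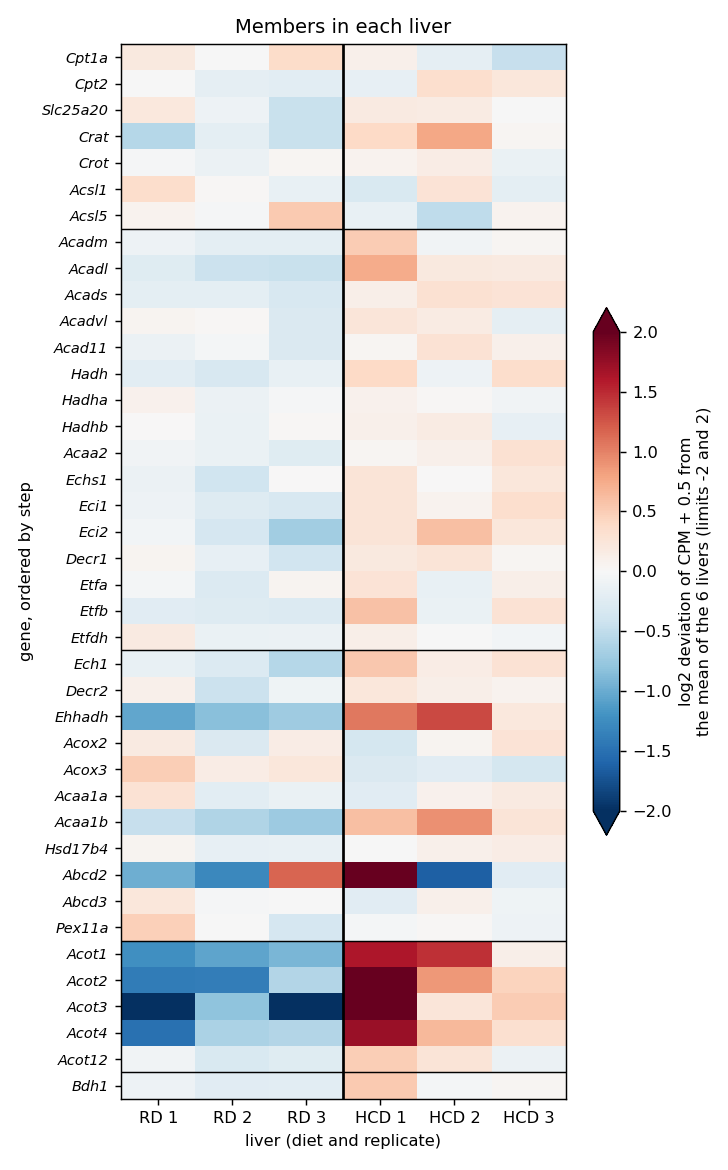
Log2 deviation of CPM plus 0.5 from each gene's mean (colour, drawn within -2 and 2) for the 40 genes (rows, ordered by step) in each liver (columns). The mitochondrial rows are faintly lower in the RD livers and higher in the HCD livers, the strongest contrasts lie in Ehhadh, Acaa1b and Acot1 to Acot4, and Abcd2 and Acot3 are highest in HCD replicate 1.

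In the carnitine shuttle and in activation, 4 of the 7 genes had a log2 fold change above 0, beside 50.7% of all genes, and 3 below. The median was 0.07. In edgeR 0 of them were called, beside 1.95% of all genes higher and 1.32% lower. Only 1 had an unadjusted p of 0.05 or less, beside 11.1% of all genes higher at that p. It was Crat, which DESeq2 called as well, beside 4.01% of all genes higher. Cpt1a, the gene of the rate-limiting outer-membrane transferase, had CPM of 248, 216 and 280.2 with RD and of 233, 192 and 159 with HCD. The diets overlapped, and the log2 fold change was -0.35 ± 0.18 (SE, adjusted p = 0.306 in the edgeR test) and from -0.50 (without HCD replicate 1) to -0.23 (without HCD replicate 3) with single livers left out. Its partners Cpt2 and Slc25a20 lay at 0.28 and 0.20, with overlap.

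Crat, the carnitine acetyltransferase, had the largest value of the group, with CPM of 39.3, 51.3 and 43.0 with RD and of 77.2, 100.1 and 59.9 with HCD. The diets were separate, and the log2 fold change of 0.83 ± 0.20 (SE, adjusted p = 0.0629 in the edgeR quasi-likelihood test) missed the threshold, but it passed in DESeq2 (adjusted p = 0.00484). Crot, the peroxisomal octanoyltransferase and the most abundant of the group at 171 FPKM, had CPM of 624, 587 and 649 with RD and of 667, 705 and 576 with HCD, with overlap and a log2 fold change of 0.07. Of the acyl-CoA synthetases, Acsl5 had CPM of 270.1, 255 and 373 with RD and of 233, 182 and 270.0 with HCD, and a log2 fold change of -0.39 ± 0.21 (SE, adjusted p = 0.319 in edgeR), and Acsl1 lay at -0.14.

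Bdh1, the mitochondrial enzyme that turns acetoacetate into 3-hydroxybutyrate, had CPM of 181, 167 and 167 with RD and of 279.8, 189.8 and 200.04 with HCD. Every HCD liver was above every RD liver, 1 of them by far, and the log2 fold change of 0.38 ± 0.17 (SE, adjusted p = 0.255 in edgeR) was 0.18 without HCD replicate 1.

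Side by side, the median log2 fold changes were 2.30 for the thioesterases (3 of 5 called), 0.38 for Bdh1, 0.32 for mitochondrial oxidation (0 of 16), 0.17 for peroxisomal oxidation (2 of 11) and 0.07 for the carnitine shuttle and activation (0 of 7), where 1.95% of all genes were called higher. In single livers, as the median deviation of a step from the mean of the 6 livers on the log2 scale, mitochondrial oxidation lay at -0.26 to -0.08 with RD and 0.08 to 0.25 with HCD, without overlap. The carnitine step lay at -0.14 to 0.07 with RD and -0.01 to 0.16 with HCD, with overlap, and so did peroxisomal oxidation, at -0.27 to 0.10 with RD and -0.00 to 0.15 with HCD. The thioesterases lay at -1.40, -0.81 and -0.58 in the RD livers and 1.73, 0.65 and 0.32 in the HCD livers.

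**Figure D4:**
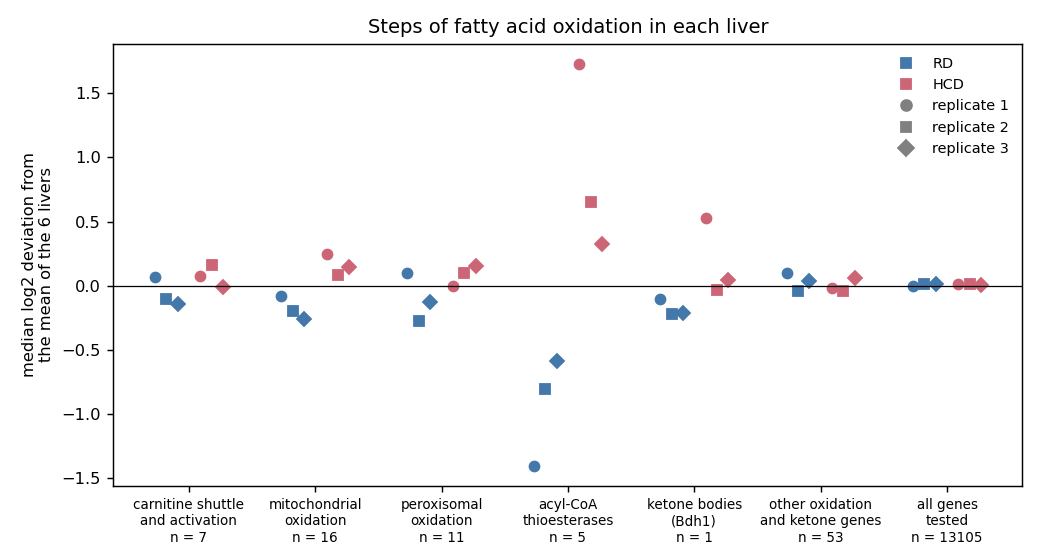
Median log2 deviation from the 6-liver mean of CPM plus 0.5 (vertical axis) for each step, for the other genes of the pathway and for all 13105 genes tested (horizontal axis), with 1 point per liver coloured by diet and shaped by replicate. The diets separate in mitochondrial oxidation, in the thioesterases and in Bdh1, and overlap in the carnitine step and in peroxisomal oxidation.

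Of 63 other genes of fatty acid oxidation and ketone metabolism, 61 were in the tables and 53 were tested, and 3 rose and 1 fell, beside 1.95% and 1.32% of all genes. Their median log2 fold change was -0.01, and the diets did not overlap in 9 that were higher and 10 that were lower, beside 14% and 13.7% of all genes. Those that rose were Nudt19, a peroxisomal CoA hydrolase (1.07, adjusted p = 0.0120 in edgeR), Acot13, a mitochondrial thioesterase (1.08, adjusted p = 0.0258), and Hacl1, the lyase of peroxisomal α-oxidation (1.38, adjusted p = 0.0458). Acacb, which makes the malonyl-CoA that inhibits CPT1 at the mitochondrial surface, fell from 71.2, 88.5 and 110.2 CPM with RD to 23.1, 30.1 and 23.9 with HCD (log2 fold change -1.81, adjusted p = 0.00523 in the edgeR test).

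Of 19 genes of peroxisome biogenesis tested, Pex7, the receptor that imports thiolases among others, rose (0.61, adjusted p = 0.0452 in edgeR) and 0 fell. Among 33 tested genes of PPARα and its targets outside oxidation, Cyp4a14, Cyp4a10 and Ucp2 (0.72) rose and Rxra, the partner receptor, fell (-0.68), where the test called 1.95% of all genes higher and 1.32% lower. The median log2 fold change of the 33 was 0.27, with 22 above 0 and 11 below, beside 50.7% of all genes above 0. Their diets did not overlap in 7 that were higher and 4 that were lower, beside 14% and 13.7% of all genes. Cyp4a14, which encodes a microsomal fatty acid hydroxylase, had CPM of 5.82, 17.5 and 40.6 with RD and of 2054, 202 and 201 with HCD, the highest in HCD replicate 1. Its relative Cyp4a10 had CPM of 41.1, 64.0 and 56.4 with RD and of 853, 174 and 231 with HCD, with the same liver highest. Cyp4a14 and Cyp4a10 had log2 fold changes of 5.26 and 2.96 in edgeR (adjusted p = 0.0474 and 0.0343) and, without HCD replicate 1, of 3.24 and 1.91. Ppara itself had 51.2 ± 10.5 CPM with RD and 56.5 ± 9.39 with HCD (log2 fold change 0.14, adjusted p = 0.707 in edgeR). Without HCD replicate 1 the calls of Hacl1, Pex7, Ucp2 and Rxra were lost, with adjusted p between 0.0540 and 0.0834 in edgeR. Those of Nudt19, Acot13, Cyp4a10 and Cyp4a14 were lost with some other liver left out (highest adjusted p = 0.0716, 0.119, 0.145 and 0.189), and of the genes called on these lists only Acacb kept its call with each liver left out in turn (highest adjusted p = 0.0318 in edgeR). Nudt7, a peroxisomal CoA hydrolase chosen after its values were seen, lay at -2.01 on the log2 scale with separate diets (adjusted p = 0.0564 in edgeR) and was called lower without HCD replicate 1 (adjusted p = 0.0208).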

How the data were processed

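Liver RNA of 3 RD and 3 HCD mice was sequenced by a service company, with 1 library per mouse, and diet and replicate were read from the sample labels. The submitters' processing notes name STAR, HTSeq, DESeq2, edgeR and the build GRCm39. The library kit, its strand and the treatment of reads that fit several genes are not given in the sources used here. The authors deposited whole-number read counts per gene without normalization, which were tested here. The authors also deposited FPKM, whose library total is not stated, and these served to compare levels between genes and in 2 alternatives. A comparison of the authors, with log2 fold changes and p-values deposited beside the FPKM, was not used.

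The 40 genes were found by symbol and joined by Ensembl identifier. The counts were fitted in edgeR 4.0.16 under R 4.3.3. The function filterByExpr, applied by diet, dropped genes with low counts, TMM factors (0.886 to 1.07) scaled the libraries, and glmQLFit and glmQLFTest compared the diets without covariates over all 13105 genes kept. The common biological coefficient of variation was 27.8%. The limit that a count of 0 allows, 3 counts, corresponded to 0.13 to 0.218 CPM by library totals alone, without TMM factors. This limit is thus not on the TMM scale of the other CPM, and it covers counting error only. Replicates are separate mice. The members, lists and tests were chosen with earlier results of these data known. Of the 40 genes, values in every liver are given for those called, for the highest level, largest rise and largest fall of each step, and for genes with separate diets and a change of at least 0.5 on the log2 scale. The ratios, the values of Cpt1a, Acaa1a, Abcd2, Acacb, Cyp4a14 and Cyp4a10 by liver, the counts without HCD replicate 1 and the shortened female list were added after the data were seen.

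The alternatives were DESeq2 1.42.0, RLE factors, unscaled library sizes, all genes unfiltered, only genes with a mean of 50 or more counts, limma-trend (limma 3.58.1) after log2 of FPKM plus 1 or 0.1, offsets against a trend with gene length, the replicate number as a block, each liver left out in turn, and other thresholds. The count tests were checked on simulated data. Promoter windows came from RefSeq on GRCm38.p6, and gene lengths and coding sequences from GENCODE M21 on GRCm38, which held 20653 of the 20673 identifiers. As the build of the files differs, positions are given only with printed sequences. Shared sequence was sought with minimap2 2.31, and figures were drawn with Python 3.11.15 and matplotlib 3.10.9. Some genes of the wider pathway are not reported here.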

Additional observations from a re-analysis of the deposited data

How the results depend on the processing

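The count of 5 genes called higher was 5 as well with RLE factors (beside 1.86% of all genes), a mean of at least 50 counts (2.6%) and the length trend (1.05%), and was 4 with library sizes alone (1.21%) and with limma-trend on log2 of FPKM plus 0.1 (1.75%). It was 8 with no filter on low counts (beside 1.76% of all genes), 10 in DESeq2 (beside 4.01% of all genes), 3 with limma-trend on log2 of FPKM plus 1 (beside 1.86%), 15 at a raw p up to 0.05 (beside 11.1%) and 11 at an adjusted p under 0.10 (beside 4.3% of all genes). With single livers left out it was 0 to 4, and 0 for each RD liver. The count called lower was 0 except at these looser thresholds, where it was 1 at each (Acox3). The value of Bdh1 ran from 0.18 (without HCD replicate 1) to 0.48 with single livers left out, and the other step medians moved by less than the spread between livers. Of 599 values of single genes under alternatives, 563 kept their side of the threshold, 28 lost and 8 gained a call, and 0 called values changed sign. Signs held in every alternative that gave a value for 33 of the 40 genes, and DESeq2 gave none for Acot3. The causes were not tested.

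The labels do not say whether the replicate numbers pair the livers. Livers of the same number had correlations of -0.0838, 0.119 and -0.0298 in their deviations from the group means. Such correlations cannot decide this, because deviations from a mean of 3 livers balance around 0. With the replicate number as a block, 0 of the 40 genes were called higher, beside 0.542% of all genes, and the adjusted p of the 5 genes lay between 0.0525 and 0.116. With 3 livers per diet, exact permutation tests give no p under 0.1, and the spread between livers rather than depth sets the precision.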
